A study of Mus musculus with 6 samples.

Results

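The genes described here are 48 genes of the cell division cycle, measured in whole mouse testis. They were chosen by name, from a list of S phase and mitosis genes of proliferating cells, and all 48 were found among the 55850 gene rows of the table. By role they comprise 19 genes of S phase, 3 D-type cyclins that act before it and 26 genes of mitosis. RNA came from 6 testis samples, 3 with the genotype label WT and 3 with the label CKO (conditional knockout, written cKO here), none of them treated. The series title names SRSF2 in Sertoli cells. SRSF2 is a splicing factor of the SR family, and Sertoli cells are the somatic cells that surround germ cells in the seminiferous tubule. No source used here gives the age, strain or number of mice, the Cre driver or the deleted part of Srsf2. The comparison asks whether transcripts of DNA replication and of cell division differ between testes of both genotypes, and S phase genes are kept apart from mitosis genes throughout.

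A dividing cell copies its genome in S phase and separates the copies in mitosis. E2F transcription factors switch on the S phase genes once D-type and E-type cyclins with their kinases have inactivated the retinoblastoma proteins. The mitosis genes are switched on later, by the MuvB complex with B-MYB and FOXM1, and many of their promoters carry a CCAAT box and an element called CHR. In the immature testis both Sertoli cells and spermatogonia divide, while in the adult testis the dividing cells are mainly germ cells. In RNA from a whole organ, fewer cells of a type and less RNA per cell cannot be told apart.

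Between 16070287 and 17281330 reads per library were recovered from the FPKM values (abundance per gene length and per library size), with even depth in both groups. Srsf2 stood at 127, 96.7 and 102 FPKM in WT and at 74.0, 87.3 and 87.3 FPKM in cKO testis, with every cKO library below every WT library and a log2 difference of -0.38 that did not pass the test over all genes (limma adjusted p = 0.384). Sertoli markers were present in every library, with 24 of 24 above a mean of 1 FPKM, and they summed to 1975 to 2522 FPKM in WT and 1476 to 1698 FPKM in cKO testis. Germ cell markers were present too, with 16 of 16 above that level, while 10 of 13 spermatid markers lay below it. Whether the 6 samples are separate animals is not in the labels, and each p-value therefore reflects only the spread among these samples, part or all of which may be technical. Tests covered the 14238 genes whose mean FPKM reached 1. At a limma adjusted p under 0.05, 2 of them (0.014%) differed, 1 higher and 1 lower (0.00702% each), and neither is among the 48.

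All 48 genes were clearly expressed, and 0 of 48 differed between cKO and WT testis at a limma adjusted p under 0.05, the lowest adjusted p being 0.379 for E2f1 and Bub1. No log2 difference was larger than 0.33 in either direction, so 0 of 48 reached 0.5 in size, as 5.79% of tested genes did. Differences are given throughout as cKO minus WT on the log2(FPKM + 1) scale, which understates the change of low genes. On that scale the 95% limma interval of every one of the 48 genes lay within 1 of 0 (the log2 of 2). That of 39 lay within 0.58 of 0 (the log2 of 1.5). In FPKM itself the intervals of low genes reach further. S phase genes lay slightly lower in cKO testis, with 14 of 19 negative and a median log2 difference of -0.12. Mitosis genes split evenly, with 13 of 26 negative and a median of 0.0008, but with trends on gene length and GC content removed 17 of 26 were negative, beside 15 of 19 S phase genes. Over all tested genes, 49.2% were negative and the median was 0.005 before the trends were removed. With the trends removed the median was 0.005 over 13945 genes, and their negative share is not given here.

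At an unadjusted limma p under 0.05, 5 of the 48 genes were lower (Gins2, E2f1, Plk1, Cenpa and Aurkb) and 1 was higher (Bub1). Over all tested genes 7.68% were lower and 4.65% higher by that rule, 12.3% together, beside 12.5% of the 48. Leaving out WT replicate 3 brought the 5 lower genes to 1, and leaving out cKO replicate 2 or cKO replicate 3 brought them to 0. The 1 higher gene became 5 when cKO replicate 1 was left out, and 0 when WT replicate 2, WT replicate 3, cKO replicate 2 or cKO replicate 3 was. Counts over all tested genes, 662 higher and 1094 lower with all libraries, moved as well. Without cKO replicate 1, 1057 were higher, and without WT replicate 2, 639 were. Without WT replicate 3, cKO replicate 2 and cKO replicate 3, 467, 237 and 269 were higher and 628, 529 and 480 lower. WT and cKO libraries did not overlap for 13 of 48 genes (27.1%), with cKO below in 10 and above in 3, where the groups did not overlap for 18.6% of all tested genes, 9.92% with cKO below and 8.69% with cKO above.

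**Figure D1:**
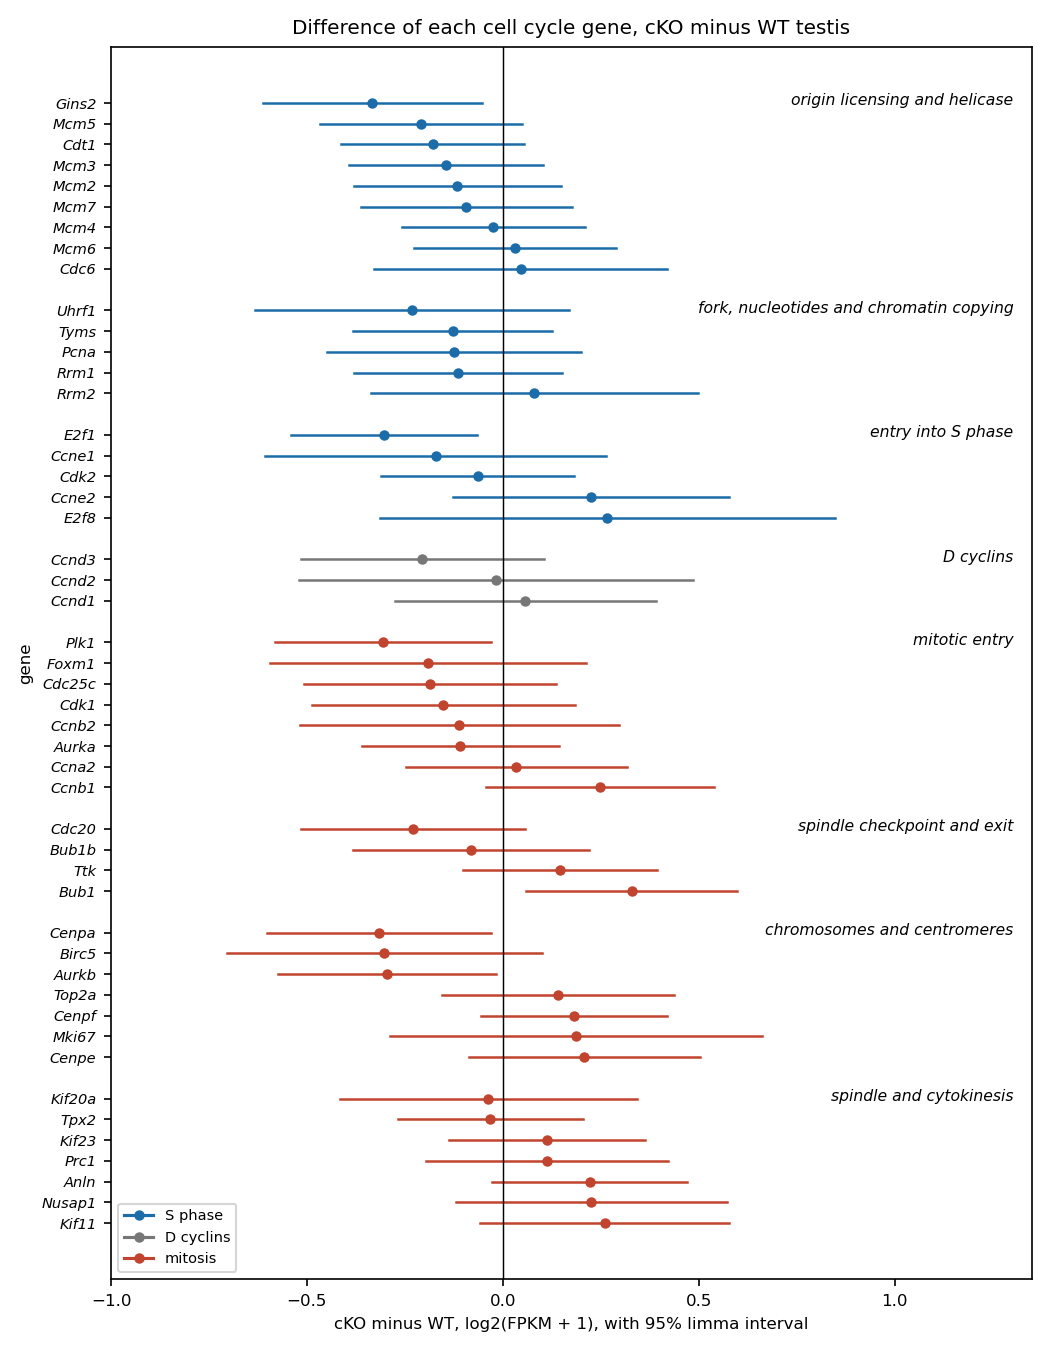
Difference between cKO and WT testis for each of the 48 genes, grouped by role. Points give the limma estimate on the log2(FPKM + 1) scale and bars its 95% interval, from 3 libraries per group. No point lies beyond 0.33 in either direction, and the intervals of 6 genes do not hold 0 before adjustment over all genes.

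Promoters are shown for 6 of the genes, because E2F sites and CHRs were not equally frequent in S phase and mitosis genes. Mitosis genes with the same elements also lay on both sides of 0. RefSeq promoter windows (GRCm38.p6) were matched by symbol for 37 of the 48 genes. Each stretch is read 5′ to 3′ on the gene's strand, ends at the RefSeq start or at most 26 bases before it, and holds no annotated exon. Capitals mark a CCAAT box (CCAAT), a CHR (TTTGAA or TTTAAA) or an E2F site (TTTCCCGC, TTTCGCGC, TTTGGCGC or TTTGCCGC), each on either strand, so that ATTGG and TTCAAA are reversed matches. The first is an S phase helicase gene with E2F sites and with CCAAT boxes too. In stretches cut the same way, Mcm3, Mcm5, Cdc6, Cdk2 and Mcm7 held no E2F site. The next 4 are mitosis genes with a CCAAT box and a CHR (Cdk1 with an E2F site too). The last is a mitosis gene with CCAAT boxes alone.
Mcm6, chr1:128359706-128359825, minus strand: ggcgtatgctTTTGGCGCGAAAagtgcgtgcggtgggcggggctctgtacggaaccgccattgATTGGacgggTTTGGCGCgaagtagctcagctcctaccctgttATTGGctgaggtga
Cdk1, chr10:69352939-69353058, minus strand: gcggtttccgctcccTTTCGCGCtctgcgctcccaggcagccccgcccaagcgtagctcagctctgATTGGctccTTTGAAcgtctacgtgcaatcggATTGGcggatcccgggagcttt
Kif11, chr19:37376262-37376381, plus strand: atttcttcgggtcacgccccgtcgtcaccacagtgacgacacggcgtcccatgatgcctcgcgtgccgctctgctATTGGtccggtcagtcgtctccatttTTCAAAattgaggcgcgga
Top2a, chr11:99024190-99024309, minus strand: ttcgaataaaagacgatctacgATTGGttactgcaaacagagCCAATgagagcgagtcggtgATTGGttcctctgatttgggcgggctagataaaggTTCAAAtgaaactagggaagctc
Cdc20, chr4:118437353-118437472, minus strand: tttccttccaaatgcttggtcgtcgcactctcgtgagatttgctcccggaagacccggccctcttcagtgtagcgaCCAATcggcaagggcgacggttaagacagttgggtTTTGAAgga
Bub1, chr2:127831866-127831985, minus strand: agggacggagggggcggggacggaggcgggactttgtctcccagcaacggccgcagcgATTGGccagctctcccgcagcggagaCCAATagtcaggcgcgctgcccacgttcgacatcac

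In the 250 bases before the start, E2F sites stood in 6 of 16 matched S phase genes (37.5%) and 1 of 20 matched mitosis genes (5%), against 1.86% of 32851 promoters in the table. These units differ, because 4 of the 37 matched genes have 2 or more promoters. Such a gene counted when any of its promoters held the element, as Uhrf1 and Mcm7 did for E2F sites. The background counted each promoter. A CCAAT box stood in 17 of 20 mitosis genes (85%) and 11 of 16 S phase genes (68.8%), against 33.8% of all promoters, and a CHR in 12 of 20 mitosis genes (60%) and 4 of 16 S phase genes (25%), against 25.2%. Among matched mitosis genes the median log2 difference was 0.11 for the 11 with both a CCAAT box and a CHR and 0.15 for the other 9. Over all 26 mitosis genes the median was 0.0008. The unmatched Cdc25c, Foxm1, Aurkb, Kif20a and Tpx2 were negative, and the unmatched Ccna2 was positive. Kif11 (0.26) and Top2a (0.14) had positive log2 differences, and Cdc20 (-0.23) and Cdk1 (-0.15) negative ones, with both elements printed above. For S phase genes with and without an E2F site the medians were -0.08 and -0.13. A match to these letters is a description and not a binding site.

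Of the 9 genes that license origins and form the replicative helicase, 7 had a negative difference, beside 49.2% of all tested genes. All cKO libraries lay below all WT libraries for 5 of the 9, beside 9.92% of all tested genes. The cKO mean of those 5 relative to the WT mean was -1.71% for Mcm4, -9.72% for Mcm3 and -22.9% for Gins2, with Cdt1 and Mcm5 between the last 2. Median GC content of the longest transcript was 51.9% for the 9 genes. Of 6973 tested genes with GC at or above the median, 5129 were negative and 1196 had every cKO library below every WT library. The MCM2-7 proteins form the ring that unwinds DNA, CDC6 and CDT1 load it onto origins, and GINS2 is part of the complex that activates it. Gins2 was measured at 9.70, 8.99 and 8.08 FPKM in the WT libraries and 7.73, 6.56 and 6.34 FPKM in the cKO libraries. Every cKO library lay below every WT library, with group means of 8.92 ± 0.810 and 6.88 ± 0.748 FPKM (SD, n = 3) and a log2 difference of -0.33 (SE 0.12, limma adjusted p = 0.380). In GENCODE M21, 67.3% of the exon bases of Gins2 are shared with Gse1 on the opposite strand, and whether counting used strand is not stated, so its value is uncertain. Mcm5 stood at 37.5, 41.1 and 42.02 FPKM in the WT libraries and 36.5, 35.3 and 32.1 FPKM in the cKO libraries. Its groups did not overlap either, at a log2 difference of -0.21 (SE 0.11, limma adjusted p = 0.467). Cdt1 was at 26.5, 24.99 and 26.1 FPKM in the WT libraries and 23.7, 22.4 and 22.01 FPKM in the cKO libraries. The spread of Cdt1 was small in both groups and the difference was -0.18 (SE 0.10, limma adjusted p = 0.489). Mcm3 was at 46.3, 44.96 and 43.6 FPKM in the WT libraries and 40.5, 38.4 and 42.9 FPKM in the cKO libraries, with a difference of -0.15 (SE 0.11, limma adjusted p = 0.580) and the cKO libraries again below.

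The other 5 genes of that role differed less. Mcm2, Mcm7 and Mcm4 had log2 differences of -0.12, -0.09 and -0.02, and Mcm6 and Cdc6 of 0.03 and 0.05. Mcm4 was the most even of the 48 genes among cKO libraries, at 43.7, 44.1 and 44.2 FPKM, all just below 44.4, 44.3 and 45.6 FPKM in WT. The 6 subunits of the MCM ring had WT means between 22.5 FPKM for Mcm2 and 54.3 FPKM for Mcm6, and between 20.6 and 55.5 FPKM in cKO for the same genes.

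Genes of the fork, of nucleotide supply and of chromatin copying overlapped between the groups in all 5 cases. Pcna encodes the sliding clamp of DNA polymerase and is a usual marker of proliferation. It stood at 58.9, 54.4 and 66.9 FPKM in the WT libraries and 53.7, 48.8 and 62.9 FPKM in the cKO libraries, a log2 difference of -0.12 (SE 0.14, limma adjusted p = 0.719). WT replicate 3 and cKO replicate 3 were the highest library of their groups, and leaving out 1 library moved the difference to between -0.22 (without cKO replicate 3) and -0.04 (without cKO replicate 2). Uhrf1, which brings the maintenance DNA methyltransferase to copied DNA, was at 24.8, 36.0 and 33.98 FPKM in the WT libraries and 27.97, 22.2 and 29.7 FPKM in the cKO libraries. Its spread was wide in both groups, with a difference of -0.23 (SE 0.17, limma adjusted p = 0.584) that was -0.39 without WT replicate 1 and -0.11 without cKO replicate 2. Ribonucleotide reductase makes deoxynucleotides and thymidylate synthase makes the thymidine nucleotide. Tyms was at 8.51, 8.41 and 9.11 FPKM in the WT libraries and 7.52, 7.35 and 8.72 FPKM in the cKO libraries, a difference of -0.13 (SE 0.11, limma adjusted p = 0.631). Rrm1, the large reductase subunit, was at 17.5, 16.5 and 16.5 FPKM in the WT libraries and 14.01, 15.2 and 17.4 FPKM in the cKO libraries, a difference of -0.11 (SE 0.11, limma adjusted p = 0.684). Rrm2, the regulated subunit, overlapped widely, at 28.1 ± 5.75 FPKM (WT) and 29.6 ± 5.38 FPKM (cKO; SD, n = 3), with a difference of 0.08.

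Among regulators of entry into S phase, E2f1 was the gene with the tightest WT values of all 48. E2f1 encodes the activating transcription factor of S phase genes and was measured at 22.4, 22.3 and 22.6 FPKM in the WT libraries and 19.3, 17.5 and 17.2 FPKM in the cKO libraries. The WT coefficient of variation was 0.643%, and every cKO library lay below WT, at 80.3% of the WT mean. On the log2 scale E2f1 differed by -0.30 (SE 0.10, limma adjusted p = 0.379). In GENCODE M21 (GRCm38) E2f1 lies at chr2:154559407-154569892 on the minus strand and shares no exon bases with another gene. E2f8, an atypical E2F that represses the same targets, went the other way, at 2.86, 5.65 and 6.11 FPKM in the WT libraries and 5.12, 5.02 and 7.61 FPKM in the cKO libraries. WT replicate 1 was the lowest library, and the difference of 0.27 (SE 0.25, limma adjusted p = 0.666) was -0.01 without it.

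The E-type cyclins, which activate CDK2 at the start of S phase, had differences of opposite sign. Ccne1 stood at 6.35, 5.48 and 8.32 FPKM in the WT libraries and 4.60, 5.65 and 7.34 FPKM in the cKO libraries, a difference of -0.17 (SE 0.19, limma adjusted p = 0.712) that was -0.32 without cKO replicate 3 and -0.03 without WT replicate 3. Ccne2 was at 6.48, 5.76 and 6.09 FPKM in the WT libraries and 5.75, 7.61 and 8.85 FPKM in the cKO libraries, a difference of 0.23 (SE 0.15, limma adjusted p = 0.549), and both genes overlapped between groups. Within each library the ratio of Ccne1 to Ccne2 FPKM was 0.981, 0.952 and 1.37 in WT and 0.800, 0.742 and 0.829 in cKO testis. The cKO ratios all lay below the WT ratios (exact two-sided permutation p = 0.1, the smallest that 3 against 3 can give, and 0.267 adjusted over the 4 ratios of paralogs computed). GC content is 52.7% in the longest Ccne1 transcript and 36.3% in that of Ccne2, and with trends on length and GC removed Ccne2 turned to -0.06. Cdk2 itself was at 16.3 ± 0.845 and 15.6 ± 1.04 FPKM (SD, n = 3), a difference of -0.06.

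The D-type cyclins carry growth signals to the retinoblastoma proteins before S phase, and their groups overlapped in all 3 cases. Ccnd2, the most abundant of them with Ccnd3, stood at 22.6, 39.6 and 32.3 FPKM in the WT libraries and 33.9, 24.4 and 33.6 FPKM in the cKO libraries. Its WT libraries alone spanned 1.76-fold, and the difference of -0.02 (SE 0.22, limma adjusted p = 0.979) turned positive in 5 other settings, among them without WT replicate 2 (0.16). Ccnd3 was at 27.1, 30.2 and 32.3 FPKM in the WT libraries and 29.8, 22.8 and 24.99 FPKM in the cKO libraries, a difference of -0.21 (SE 0.13, limma adjusted p = 0.537). Ccnd1 was low, at 3.004, 4.20 and 3.95 FPKM in the WT libraries and 3.82, 3.49 and 4.36 FPKM in the cKO libraries, with a difference of 0.06 (SE 0.14, limma adjusted p = 0.879) that was -0.06 without WT replicate 1 and -0.01 without cKO replicate 3. The Ccnd1 exons share 23.4% of their bases with LTO1 on the opposite strand.

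**Figure D2:**
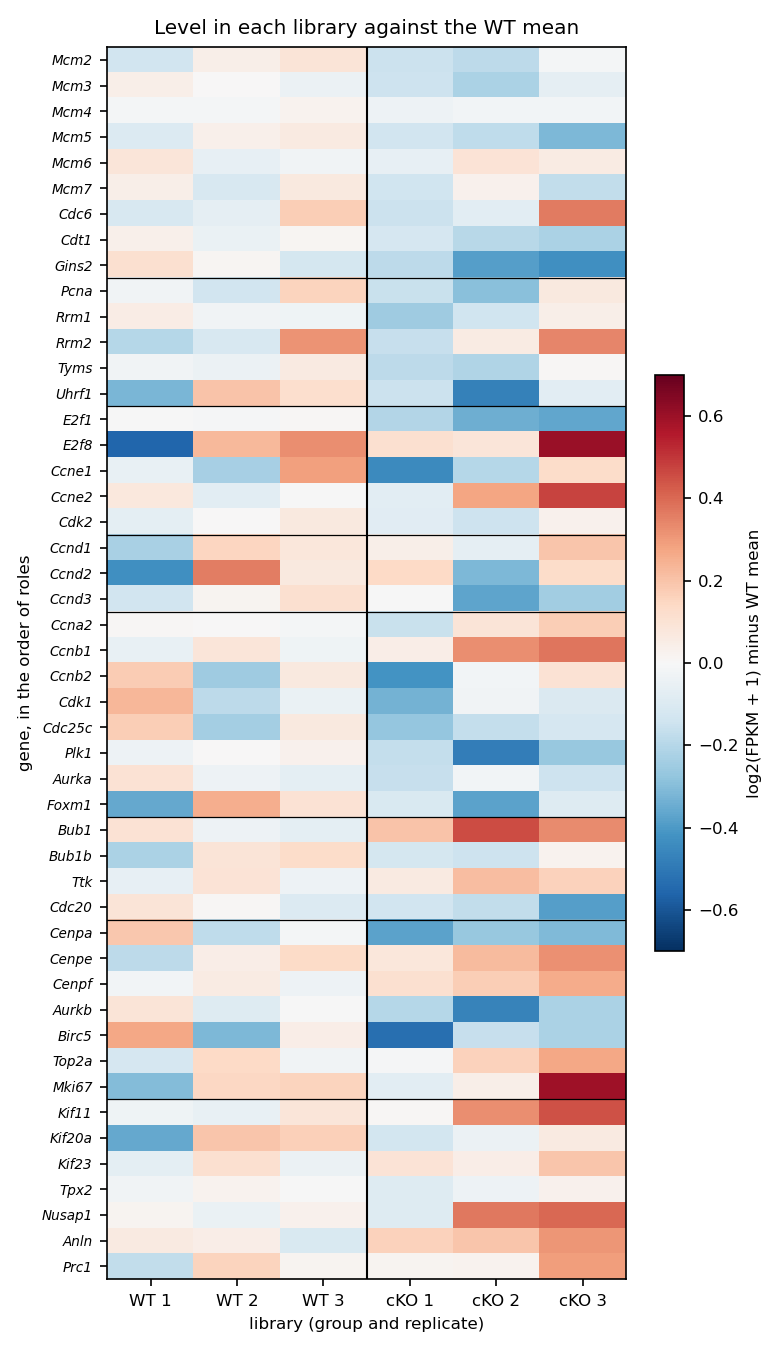
Level of each gene in each library, as log2(FPKM + 1) minus the mean of the 3 WT libraries, in the order of the roles (black lines divide roles). Of 19 S phase genes, 1 lies above its WT mean in cKO replicate 1, 5 in cKO replicate 2 and 10 in cKO replicate 3, and of 26 mitosis genes 9, 13 and 17 do.

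Genes of mitotic entry were mostly on the lower side, with 6 of 8 negative and a median of -0.13. Plk1 encodes the polo kinase that drives entry into mitosis and spindle assembly. It stood at 31.3, 32.2 and 32.9 FPKM in the WT libraries and 28.5, 22.7 and 26.5 FPKM in the cKO libraries. All cKO libraries lay below the narrow WT range, at a log2 difference of -0.31 (SE 0.12, limma adjusted p = 0.384). Ccnb1, the cyclin partner of CDK1 in mitosis, went the other way, at 26.5, 29.3 and 26.9 FPKM in the WT libraries and 28.4, 34.8 and 35.96 FPKM in the cKO libraries. The lowest cKO library lay inside the WT range and the difference was 0.25 (SE 0.13, limma adjusted p = 0.450). Cdc25c, a phosphatase that activates CDK1, was low at 5.25, 3.71 and 4.83 FPKM in the WT libraries and 3.60, 3.96 and 4.11 FPKM in the cKO libraries, a difference of -0.19 (SE 0.14, limma adjusted p = 0.585). Foxm1, the transcription factor of mitosis genes, was at 12.6, 19.8 and 17.7 FPKM in the WT libraries and 15.2, 12.4 and 15.4 FPKM in the cKO libraries, a difference of -0.19 (SE 0.17, limma adjusted p = 0.656). WT replicate 1 was far below the other WT libraries for Foxm1 and level with the lowest cKO library, and the difference was -0.37 without it and -0.06 without WT replicate 2.

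The groups overlapped for the remaining genes of mitotic entry. Cdk1, the kinase itself, was at 27.8 ± 4.28 FPKM (WT) and 24.8 ± 2.78 FPKM (cKO; SD, n = 3), a difference of -0.15. Ccna2, a cyclin of both S phase and mitosis, was at 38.2, 38.1 and 37.6 FPKM in WT and 33.9, 40.4 and 42.9 in cKO, a difference of 0.03. Ccnb2 and Aurka, a kinase of the spindle poles, had differences of -0.11 and -0.11. Ccnb1 and Ccnb2 thus had opposite signs, with a ratio of 0.497 ± 0.109 (WT) and 0.634 ± 0.0428 (cKO; SD, n = 3), and the ratios overlapped between groups.

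In the spindle checkpoint, Bub1 had the largest positive difference of the 48 genes. BUB1 is a kinase at the kinetochore that holds mitosis until chromosomes are attached, and Bub1 was at 20.95, 18.96 and 18.5 FPKM in the WT libraries and 22.5, 27.1 and 24.7 FPKM in the cKO libraries. Each cKO library lay above each WT library, with a log2 difference of 0.33 (SE 0.12, limma adjusted p = 0.379) and an unadjusted limma p of 0.0226. Bub1 lies at chr2:127801122-127831865 (GRCm38, minus strand) and shares no exon bases with another gene. Cdc20 encodes the activator of the complex that ends mitosis and was at 71.2, 67.03 and 62.3 FPKM in the WT libraries and 60.9, 59.1 and 50.8 FPKM in the cKO libraries. Here each cKO library lay below each WT library, with a difference of -0.23 (SE 0.12, limma adjusted p = 0.467). Ttk, the checkpoint kinase upstream of BUB1, was at 6.58, 7.42 and 6.70 FPKM in the WT libraries and 7.23, 8.18 and 7.81 FPKM in the cKO libraries, a difference of 0.15 (SE 0.11, limma adjusted p = 0.581). Bub1b, whose product inhibits CDC20, was at 20.3, 25.5 and 26.2 FPKM in the WT libraries and 21.8, 21.5 and 24.3 FPKM in the cKO libraries, a difference of -0.08 (SE 0.13, limma adjusted p = 0.804). The paralogs Bub1 and Bub1b thus had opposite signs, and their ratio was 0.828 ± 0.177 (WT) and 1.10 ± 0.138 (cKO; SD, n = 3), overlapping between groups.

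Of the genes of chromosomes and centromeres 3 had negative and 4 positive differences. Cenpa, the histone H3 variant of centromeres, was at 23.5, 18.1 and 20.4 FPKM in the WT libraries and 15.6, 16.9 and 16.4 FPKM in the cKO libraries. No cKO library reached the lowest WT library, at a difference of -0.32 (SE 0.12, limma adjusted p = 0.385). Aurkb and Birc5 encode the kinase and the survivin subunit of the chromosomal passenger complex, which corrects attachments and guides division. Aurkb stood at 27.7, 24.2 and 25.9 FPKM in the WT libraries and 22.4, 18.5 and 22.05 FPKM in the cKO libraries, with no overlap and a difference of -0.30 (SE 0.12, limma adjusted p = 0.396). Birc5 was at 29.7, 19.5 and 25.3 FPKM in the WT libraries and 16.7, 21.8 and 20.9 FPKM in the cKO libraries, and with a low WT replicate 2 the groups overlapped, at a difference of -0.30 (SE 0.17, limma adjusted p = 0.495). In GENCODE M21 (GRCm38), Cenpa lies at chr5:30666777-30674830 and Aurkb at chr11:69045647-69051664, both on the plus strand, and neither shares exon bases with another gene.

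The 4 with positive differences were Cenpf, Top2a, Mki67 and Cenpe. Cenpf, a kinetochore protein, was at 8.94, 9.46 and 8.82 FPKM in the WT libraries and 9.88, 10.4 and 11.1 FPKM in the cKO libraries, without overlap and at a difference of 0.18 (SE 0.10, limma adjusted p = 0.489). Top2a, the topoisomerase that untangles sister chromatids, was at 39.9, 47.9 and 42.6 FPKM in the WT libraries and 43.05, 48.5 and 52.5 FPKM in the cKO libraries, a difference of 0.14 (SE 0.13, limma adjusted p = 0.653). Mki67, which encodes the Ki-67 antigen used to count cycling cells, was at 26.8, 36.9 and 37.2 FPKM in the WT libraries and 31.6, 34.2 and 50.6 FPKM in the cKO libraries. The cKO replicate 3 value was the highest of the 6 libraries, and the difference of 0.19 (SE 0.21, limma adjusted p = 0.714) was -0.02 without it. Cenpe, a kinetochore motor, had a difference of 0.21 with overlapping groups.

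Of the genes of the spindle and of cell separation, 5 of 7 had a positive difference. Kif11, the motor that pushes the spindle poles apart, was at 18.4, 18.1 and 19.99 FPKM in the WT libraries and 18.9, 23.9 and 26.03 FPKM in the cKO libraries. The lowest cKO library lay within the WT range and the difference was 0.26 (SE 0.14, limma adjusted p = 0.462). Anln encodes anillin of the contractile ring and was at 13.2, 13.05 and 11.6 FPKM in the WT libraries and 14.2, 14.5 and 15.9 FPKM in the cKO libraries. Its cKO libraries all lay above the WT libraries, at a difference of 0.22 (SE 0.11, limma adjusted p = 0.434). Nusap1, a spindle microtubule protein, was at 21.9, 20.9 and 22.1 FPKM in the WT libraries and 20.2, 28.2 and 28.9 FPKM in the cKO libraries, a difference of 0.23 (SE 0.15, limma adjusted p = 0.542) in which cKO replicate 1 lay below WT. Kif23, a motor of the midzone, was at 10.8, 12.4 and 11.05 FPKM in the WT libraries and 12.2, 11.8 and 13.2 FPKM in the cKO libraries, a difference of 0.11 (SE 0.11, limma adjusted p = 0.672). Prc1, which bundles midzone microtubules, Tpx2, a spindle assembly factor, and Kif20a, a midzone motor, had differences of 0.11, -0.03 and -0.04. Kif20a shares 29.3% of its exon bases with Cdc23 on the opposite strand.

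Set against each other within a library, S phase genes lay lower relative to mitosis genes in cKO testis by a small amount. The mean over the 19 S phase genes of log2(FPKM + 1), centred per gene over the 6 libraries, was -0.02, 0.02 and 0.12 in WT and -0.10, -0.09 and 0.07 in cKO testis. For the 26 mitosis genes it was -0.02, 0.0005 and 0.02 in WT and -0.10, 0.009 and 0.09 in cKO testis. The S phase mean minus the mitosis mean was 0.0007, 0.02 and 0.11 in WT and -0.0004, -0.10 and -0.03 in cKO testis, a group difference of -0.09. WT replicate 1 and cKO replicate 1 were nearly equal on that measure, and cKO replicate 1 was low in both lists. Mean levels of mitosis genes were even in WT (SD 0.018, n = 3) and more spread in cKO testis (SD 0.098, n = 3). This was not particular to them. All tested genes with GC content below their median had SDs of 0.010 (WT) and 0.074 (cKO), and those at or above it 0.026 and 0.070. As the S phase and mitosis lists were chosen with results of the data known, no p is given for such means.

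Cell type markers differed between libraries as well. The mean of 16 germ cell markers on the same scale was 0.27, -0.09 and -0.57 in WT and 0.28, 0.32 and -0.20 in cKO testis, so WT replicate 3 and cKO replicate 3 were lowest in germ cell markers of their groups and highest in S phase and mitosis genes. Summed germ cell marker levels ranged from 241 to 475 FPKM in WT and from 314 to 463 FPKM in cKO testis, with 0 of 16 markers at 0. The mean of 24 Sertoli markers was 0.19, 0.02 and 0.26 in WT and -0.17, -0.16 and -0.15 in cKO testis, with 20 of 24 negative and 11 of 24 without overlap, all 11 with cKO below. Over all tested genes 49.2% were negative and 9.92% had cKO below without overlap. Of the germ cell markers 13 of 16 had a positive difference (median 0.31), as did 7 of 12 tested spermatogonial markers (0.02), 11 of 14 of meiotic prophase (0.21), 5 of 9 of Leydig cells (0.08), 5 of 9 of macrophages (0.04), 1 of 3 of spermatids (-0.01) and 7 of 7 of red blood cells (0.69). Groups overlapped for 6 of the 7 red blood cell markers. Their mean was -1.01, -0.95 and 0.73 in WT and -0.26, 0.65 and 0.84 in cKO testis. The difference was negative for 4 of 6 markers of peritubular myoid cells (median -0.15), 6 of 9 of stroma (-0.17) and 5 of 8 of endothelium (-0.05). Median GC content of the longest transcript was 53.3% for Sertoli, 47.6% for germ cell and 42.1% for meiotic prophase markers, beside 49.8% over tested genes. It was 53.3%, 54.5% and 52.2% for red blood cell, macrophage and tested spermatogonial markers, whose medians were positive. Differences fell with GC content over all tested genes (Pearson r = -0.56), and its part in the marker differences was not tested. Reads of 18S ribosomal RNA made up 1.58 to 2.09% in WT and 0.727 to 0.835% in cKO libraries, and mitochondrial reads 1.66 to 1.98% in WT and 2.39 to 2.97% in cKO libraries, so the groups did not overlap in either share. The part of these differences in the values of the cell cycle genes was not tested.

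**Figure D3:**
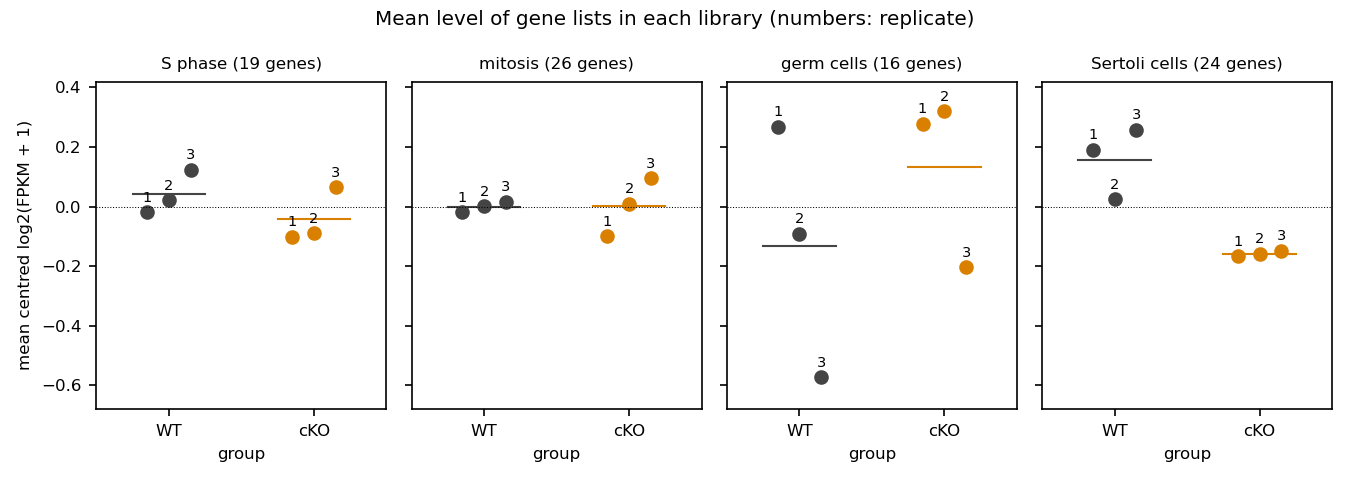
Mean of log2(FPKM + 1), centred per gene over the 6 libraries, for S phase genes, mitosis genes, germ cell markers and Sertoli markers. Points are libraries with their replicate number and lines are group means. S phase means run from -0.10 to 0.12 and mitosis means from -0.10 to 0.09, while germ cell markers span -0.57 to 0.32.

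Genes with a GC-rich transcript had the lower differences. Across the 48 genes the log2 difference and the GC content of the longest GENCODE M21 transcript had a Pearson r of -0.73 and a Spearman rho of -0.74. The r was -0.65 over the 19 S phase genes and -0.80 over the 26 mitosis genes, and it was -0.56 over 13945 tested genes with a known GC content. These are correlations across genes that share the same 6 libraries, so genes are not independent replicates. Of the 10 S phase genes with GC at or above the median of tested genes 9 were negative (median -0.18), and of the 9 below it 5 were (median -0.02). Of the 6 mitosis genes with GC at or above the median of tested genes all 6 were negative (median -0.21), and of the 20 below it 13 were positive (median 0.13). Bub1 has 41.0% GC and Kif11 42.2%, while Plk1 has 56.0%, Cdc20 55.6%, Cdt1 57.8% and E2f1 58.3%. All tested genes with GC at or above their median had a median log2 difference of -0.12, and those below it 0.13.

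When trends on deposited gene length and on GC content of the longest transcript were taken out of every library, the S phase median went from -0.12 to -0.09. The mitosis median went from 0.0008 to -0.05, and the gap between both lists from -0.09 to -0.02. E2f1 went from -0.30 to -0.09, Plk1 from -0.31 to -0.12 and Cdc20 from -0.23 to -0.05, and 7 of the 48 genes changed sign, namely Cdt1 (0.02), Ccne2 (-0.06), Prc1 (-0.05), Ccna2 (-0.05), Mcm6 (-0.04), Top2a (-0.02) and Cenpf (-0.003). Bub1 was at 0.15 and Anln at 0.09 in that fit. Cenpa (-0.37), Birc5 (-0.35), Cdc25c (-0.31), Rrm1 (-0.29), Gins2 (-0.24) and Tyms (-0.22) were then the 6 genes with an unadjusted limma p under 0.05, all lower and 0 higher, where 5.42% of tested genes were lower and 3.08% higher. These 6 were named after their values were seen, and 0 of 48 passed after adjustment, with a lowest limma adjusted p of 0.528.

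**Figure D4:**
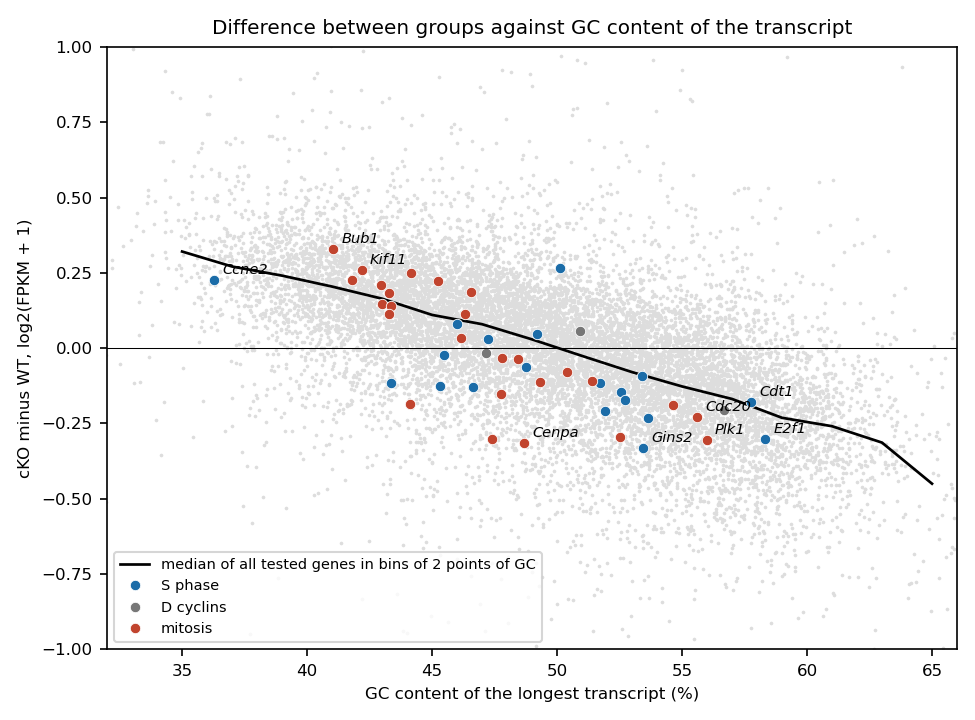
Log2 difference between cKO and WT testis against the GC content of each gene's longest transcript, for all tested genes (grey), the 48 cell cycle genes (coloured) and the median of all tested genes per 2 points of GC (line). The 48 genes slope down with GC (r = -0.73), as all tested genes do (r = -0.56).

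Wider lists of the same pathways, which hold none of the 48 genes, held 0 genes past the adjusted threshold. At an unadjusted limma p under 0.05, 4.65% of all tested genes were higher and 7.68% lower, to be read beside the counts of each list. Of 44 tested further replication genes 22 were positive and 22 negative (median -0.004), with 1 higher and 1 lower at an unadjusted p under 0.05 and 0 past adjustment. Pold2, a subunit of DNA polymerase delta, was at 36.3, 32.3 and 35.1 FPKM in the WT libraries and 26.9, 25.9 and 25.8 FPKM in the cKO libraries, a log2 difference of -0.39 (SE 0.11, limma adjusted p = 0.372). Orc2, of the origin recognition complex, was at 8.44, 8.85 and 10.5 FPKM in the WT libraries and 11.3, 12.1 and 13.3 FPKM in the cKO libraries, a difference of 0.37 (SE 0.12, limma adjusted p = 0.379). Tk1, thymidine kinase, stood at -0.27 and Pola2, of DNA polymerase alpha, at -0.25, while Pola1, its catalytic subunit, stood at 0.21 and Pole2, of polymerase epsilon, at 0.27. Catalytic and accessory subunits of polymerase alpha thus had opposite signs, with GC contents of 41.5% for Pola1 and 47.0% for Pola2.

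Among 60 further mitosis genes 27 were negative and 33 positive (median 0.03), with 5 lower and 1 higher at an unadjusted p under 0.05 and 0 past adjustment. Kifc1, a minus-end motor of the spindle, was at 22.7, 18.2 and 20.4 FPKM in the WT libraries and 14.3, 11.2 and 12.1 FPKM in the cKO libraries. Each cKO library lay well below each WT library, at a log2 difference of -0.66 (SE 0.13, limma adjusted p = 0.360), larger in size than for any of the 48 genes. Spc24, of the NDC80 complex at the kinetochore, was at 15.2, 11.6 and 14.2 FPKM in the WT libraries and 9.20, 7.70 and 9.33 FPKM in the cKO libraries, a difference of -0.59 (SE 0.13, limma adjusted p = 0.360). Pimreg, a mitotic regulator, was at 28.04, 20.9 and 22.6 FPKM in the WT libraries and 16.8, 16.2 and 15.4 FPKM in the cKO libraries, a difference of -0.53 (SE 0.13, limma adjusted p = 0.361). On the higher side stood Ncapg, a condensin subunit, at 0.42, Depdc1a at 0.38 and Sgo1, the protector of centromere cohesion, at 0.22. The other passenger complex subunits Incenp and Cdca8, named after their values were seen, stood at -0.34 and -0.17, the same sign as Aurkb and Birc5.

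Among 37 regulators of G1 and brakes of the cycle, 21 were positive and 16 negative (median 0.03), with 4 higher and 2 lower at an unadjusted p under 0.05 and 0 past adjustment. Cdkn1a, the p21 inhibitor of cyclin-dependent kinases, was low at 1.34, 1.21 and 1.36 FPKM in the WT libraries and 2.47, 2.17 and 2.03 FPKM in the cKO libraries. No cKO library overlapped with WT, at a log2 difference of 0.48 (SE 0.14, limma adjusted p = 0.372). Ccng1, a cyclin gene induced by p53, stood at 0.73 (limma adjusted p = 0.306) and Mdm2, which encodes the ligase that degrades p53, at 0.33. Cdk4, the kinase partner of D-type cyclins, was at 125 ± 16.8 FPKM (WT) and 99.2 ± 5.33 FPKM (cKO; SD, n = 3), a difference of -0.32. Cdkn2c, an inhibitor of that kinase, was at -0.28 and Trp53, the p53 gene, at -0.22.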

How the data were processed

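The FPKM values, in 1 table for the 6 libraries, are as deposited by the authors, scaled to gene length and a library total. Trizol extraction and a SMARTER mRNA-Seq kit are named per the labels' protocols. Per the submitters' processing notes the builds were GRCm38 and mm10. No source used here gives the aligner, counter, annotation or strand setting. FPKM times gene length came to whole reads for 100% of nonzero values (tolerance 0.01). The 14238 genes whose mean FPKM reached 1 entered limma-trend (limma 3.58.1, R 4.3.3) on log2(FPKM + 1), cKO minus WT, adjusted by Benjamini-Hochberg at a threshold of 0.05. The procedure was tested on simulated data. Members and lists were chosen with earlier results of these data known. Values per library are given for up to 4 genes of each role with the lowest p, for D cyclins, Mki67, Pcna and Top2a, and for some of the wider lists' genes. Up to 3 genes a direction of each wider list are named, the others by their difference alone. Further genes are named as such or as remaining members. Exon overlaps and GC content come from GENCODE M21, by gene identifier. Marker lists also covered spermatogonia, meiotic prophase, Leydig, peritubular myoid, stromal, endothelial, macrophage and red blood cells. The 16 alternatives comprised a pseudocount of 0.1, no low-value filter or a minimum mean of 5 FPKM, 3 scalings, limma without trend, voom on recovered reads (at least 10 in at least 3 libraries), the replicate block, trends on length and GC removed (splines with 5 degrees of freedom, GC known for 97.9% of genes) and leaving out each library. Tables were handled in Python 3.11.15 and pandas 2.3.3.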

Additional observations from a re-analysis of the deposited data

How the results depend on the processing

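In all 16 alternatives 0 of the 48 genes passed a limma adjusted p of 0.05, and the lowest adjusted p of a gene given by library was 0.227, for E2f1 and Nusap1 without cKO replicate 1, against 0.379 for E2f1 as reported. The S phase median was negative in all 16, from -0.16 to -0.06. The mitosis median ran from -0.05 to 0.08 and was positive in 13. The gap between both lists was negative in all 16, from -0.11 to -0.024, the last with length and GC trends removed. Without 1 library, the S phase median was -0.16 to -0.06, the mitosis median -0.05 to 0.08 and the gap -0.11 to -0.05. Over all genes, 1 was higher and 1 lower at an adjusted p under 0.05, and leaving out any library gave 0 to 0 in both directions. The higher count was 0 with a pseudocount of 0.1, without a filter, at a mean FPKM of at least 5, with median-of-ratios scaling and with the replicate block, and 2 with length and GC trends removed. The lower count was 0 without a filter, with the replicate block and with voom.

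At an unadjusted p under 0.05, members lower numbered 5 as reported, 1 on the TPM scale, 3 with voom, 3 with the replicate block and 0 to 5 without 1 library. Members higher numbered 1 as reported, 2 without a filter, 0 with the replicate block, 0 with length and GC trends removed and 0 to 5 without 1 library. The cause of these shifts was not tested. Deviations of same-numbered WT and cKO libraries from their group means had correlations of 0.095, -0.33 and 0.39 for numbers 1 to 3. Of the 3 WT libraries 1 correlated best with its own number. Deviations from a mean of 3 libraries depend on each other, so these values cannot decide whether the numbers pair the samples. Over the 14238 genes reported, the median was 0.005 and the split at an unadjusted p under 0.05 was 662 higher and 1094 lower. On the TPM scale it was 0.07 with 1047 and 847 over 18620 genes, and with voom 0.04 with 1058 and 999 over 17780 genes, so the genes tested differed along with the scale or model. Leaving out 1 library gave 237 to 1057 higher and 480 to 1465 lower over the 14238 genes. Of 526 values under the alternatives for the 33 members given by library, 13 had the opposite sign, over 8 genes. For 20 of these 33, leaving out 1 library moved the difference by over 1.5 times. Depth allowed 209 to 8307 reads per member and library.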

Other observations

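Fen1, which encodes the nuclease that trims Okazaki fragments, was the 1 gene of the 45 further replication genes that was not tested, with FPKM of 1.14, 0.689 and 1.62 in WT and 0.943, 0.281 and 0.683 in cKO libraries. In GENCODE M21, 84.2% of its exon bases are shared with Gm10143 and Tmem258 on the opposite strand. Of the 48 cell cycle genes, 17 share exon bases with another gene, 3 of them (Gins2, Kif20a and Ccnd1) over 20%. Over the members that share none, the median log2 difference was -0.13 for 14 S phase genes and 0.11 for 17 mitosis genes. Of these 17, 8 were negative and 9 positive, with a mean difference of 0.03.

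Spread within a group differed between members. Among WT libraries E2f8 spanned 2.13-fold, Ccnd2 1.76-fold and Foxm1 1.57-fold, while E2f1, Ccna2 and Mcm4 spanned 1.01-fold, 1.02-fold and 1.03-fold. WT replicate 1 was the lowest of the 6 libraries for 13 of the 48 genes and the highest for 12. The lowest value lay in cKO replicate 1 for 15 genes and the highest for 0, and in cKO replicate 3 the lowest for 6 and the highest for 17.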
